A study of Mus musculus with 43 samples.

Results

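The regions described here are peaks of trimethylated lysine 4 of histone H3 (H3K4me3) that lie away from annotated gene starts and were present in the mouse testis at both postnatal day 7 (P7) and day 14 (P14). A member is a peak of the first P7 list whose range overlaps, by at least 1 bp, a peak of the other P7 list and of both P14 lists, with a summit more than 3000 bp from each GENCODE vM21 transcript start, on an autosome. Of 18310 autosomal peaks in the first P7 list 2514 (13.7%) were distal in this sense, 1298 of these were also in the other P7 list, 1067 in the first P14 list as well, and 1007 in all 4. The 1007 members are 5.5% of the autosomal peaks and 40.1% of the distal ones, and since they were chosen by their H3K4me3 peaks in these 4 lists, their H3K4me3 values are given as a description.

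The study profiled chromatin by CUT&Tag, in which an antibody directs a transposase to cut DNA beside a histone mark, and RNA by whole-testis RNA-seq and by Smart-seq2, a low-input method, of sorted spermatogonia. The CUT&Tag lists used here came from wild-type (WT) C57BL/6J males: 2 libraries each of H3K4me3, H3K27ac, H3R2me2a, H3R8me2a and H4R3me1 per age, 3 of H4R3me2a per age, and 2 of H4R3me2s at P7 and 3 at P14. A further 2 P7 H4R3me2s libraries were from Prmt1-dKO males, in which a tamoxifen-activated Cre under the germ cell promoter Ddx4 deletes loxP-flanked Prmt1, the main asymmetric arginine methyltransferase, after 3 days of injection. The P7 RNA comprised 3 WT and 3 dKO libraries of testis and 2 WT and 2 dKO libraries of spermatogonia. The methods describe the Smart-seq2 controls as carrying the Cre and 1 floxed allele, whereas the labels call them WT. CUT&Tag cells were strained tubule suspensions rather than sorted cells. The P14 libraries are titled as spermatogonia and labelled as spermatocytes.

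H3K4me3 is deposited by SET1 and MLL complexes, is read by PHD-finger proteins such as those of the ING family, and is removed by KDM5 demethylases. It marks the starts of active and poised genes, above all those in CpG islands, stretches of DNA in which CpG dinucleotides escaped the loss caused by methylation. Peaks far from annotated starts can mark unannotated promoters, strong enhancers or, in meiotic cells, the hotspots at which PRDM9 methylates histones, and some high-copy or poorly assembled DNA is known to give peaks in many chromatin assays. The asymmetric arginine marks H4R3me2a, H3R2me2a and H3R8me2a, the symmetric H4R3me2s and the monomethyl H4R3me1 are the substrates and products around which the study was built, and H3K27ac marks active promoters and enhancers.

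Of the 1007 members, 254 (25.2%) carried peaks in at least 25 of the 29 lists of the other antibodies, and these were mostly CpG-poor or repeated DNA. Of the rest, 154 (15.3% of members) had a start of a second annotation, RefSeq, within 1000 bp, 250 (24.8%) had none but a CpG-island-like window, and 349 (34.7%) had neither. Windows chosen to show examples of these kinds, though none of the last, are printed as 300 bases centred on the summit, GRCm38 forward strand, in lower case with each CpG in capitals.

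The first 2 are among the 10 members with the highest H3K4me3 score in the weakest list and were picked from these for their CpG-rich windows: the intergenic peak chr11:109011517-109012237, 4259 bp from the pseudogene Gm11668, and chr16:57391204-57391811 in an intron of Filip1l.

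chr11:109011760-109012059: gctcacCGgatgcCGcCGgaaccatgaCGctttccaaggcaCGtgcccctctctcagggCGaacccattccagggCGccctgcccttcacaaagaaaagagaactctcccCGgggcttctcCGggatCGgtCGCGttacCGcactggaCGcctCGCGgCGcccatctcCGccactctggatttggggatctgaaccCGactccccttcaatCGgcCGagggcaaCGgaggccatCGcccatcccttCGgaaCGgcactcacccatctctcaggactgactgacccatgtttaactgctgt

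chr16:57391259-57391558: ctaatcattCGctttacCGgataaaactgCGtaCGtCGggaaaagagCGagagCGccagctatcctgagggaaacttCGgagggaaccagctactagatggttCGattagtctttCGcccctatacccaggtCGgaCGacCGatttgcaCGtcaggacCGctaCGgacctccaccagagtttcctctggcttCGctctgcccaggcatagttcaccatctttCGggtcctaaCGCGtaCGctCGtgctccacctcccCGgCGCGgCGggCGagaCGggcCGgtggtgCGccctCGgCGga

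The chr11 window holds 25 CpGs in sequence found once in the assembly. The chr16 window holds 32 CpGs and its median 31-base word (31-mer) occurs 7 times there. The next is the widest member, the 2384-bp peak chr17:13550744-13553127 in an intron of the lincRNA 2700054A10Rik. It has no CpG and hence no capitals, and is a run of short tandem units.

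chr17:13552665-13552964: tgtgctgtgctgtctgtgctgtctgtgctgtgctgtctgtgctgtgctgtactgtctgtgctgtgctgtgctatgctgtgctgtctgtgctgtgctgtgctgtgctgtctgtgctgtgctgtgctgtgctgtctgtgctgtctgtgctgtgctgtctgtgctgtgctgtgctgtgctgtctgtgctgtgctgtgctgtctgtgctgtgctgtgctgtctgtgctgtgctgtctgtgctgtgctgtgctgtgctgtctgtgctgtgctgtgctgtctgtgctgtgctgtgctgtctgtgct

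The fourth stands for 26 members on chromosome 6 between Ezh2 and Pdia4, in a tandem array that holds the RefSeq gene Rn4.5s, which encodes a small rodent RNA. Its peak is chr6:47772576-47773178.

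chr6:47772774-47773073: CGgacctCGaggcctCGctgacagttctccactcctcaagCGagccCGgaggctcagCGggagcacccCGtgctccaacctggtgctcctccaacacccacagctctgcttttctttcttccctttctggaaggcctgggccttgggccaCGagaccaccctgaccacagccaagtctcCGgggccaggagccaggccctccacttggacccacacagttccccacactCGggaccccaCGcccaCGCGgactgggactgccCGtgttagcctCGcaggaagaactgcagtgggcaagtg

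The last 3 lie in sequence found once and were in fewer than 25 lists. The peaks chr16:64873201-64874244 and chr4:8646895-8648764 lie at the RefSeq noncoding genes Gm33971 and Gm8273, and chr1:134556472-134557024 lies 3335 bp from the nearest start of Kdm5b, which encodes an H3K4 demethylase.

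chr16:64873602-64873901: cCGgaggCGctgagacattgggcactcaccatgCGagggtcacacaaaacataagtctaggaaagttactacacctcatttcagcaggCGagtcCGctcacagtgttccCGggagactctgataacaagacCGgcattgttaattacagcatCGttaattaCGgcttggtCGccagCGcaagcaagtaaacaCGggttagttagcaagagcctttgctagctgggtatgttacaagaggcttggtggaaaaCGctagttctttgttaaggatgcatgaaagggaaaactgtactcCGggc

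chr4:8647194-8647493: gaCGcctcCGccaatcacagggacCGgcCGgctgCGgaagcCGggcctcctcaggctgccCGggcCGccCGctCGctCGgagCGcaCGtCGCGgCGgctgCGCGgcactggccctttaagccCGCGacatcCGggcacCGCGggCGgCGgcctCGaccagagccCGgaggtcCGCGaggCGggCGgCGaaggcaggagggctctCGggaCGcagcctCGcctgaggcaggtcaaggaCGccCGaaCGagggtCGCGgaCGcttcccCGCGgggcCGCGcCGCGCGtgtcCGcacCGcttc

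chr1:134556686-134556985: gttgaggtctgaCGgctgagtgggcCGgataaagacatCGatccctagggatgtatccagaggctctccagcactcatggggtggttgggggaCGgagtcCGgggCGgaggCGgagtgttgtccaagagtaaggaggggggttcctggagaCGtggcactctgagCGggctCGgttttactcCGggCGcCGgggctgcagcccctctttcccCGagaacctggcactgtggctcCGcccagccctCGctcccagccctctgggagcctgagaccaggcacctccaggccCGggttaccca

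These windows hold 14, 50 and 17 CpGs, with a GC content of 49.3%, 77.7% and 65.7%.

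The members were narrow and of moderate height. Median fold enrichment over the local background, as the peak caller gave it, was 4.97 and 5.04 in the P7 lists and 5.09 and 5.56 in the P14 lists, with extremes of 1.92 and 22.9. Median −log10 q was 8.4 and 7.58 at P7 and 9.4 and 11.3 at P14. Median width was 561 and 493 bp at P7 and 599 and 641 bp at P14, against 1060 and 992 bp at P7 for the 13249 peaks that met the same overlaps with a summit within 3000 bp of a start (shared promoters). Fold enrichment was higher in both P14 lists than in both P7 lists at 320 members and lower in both at 129. The median log2 ratio of the P14 to the P7 mean was 0.084, with quartiles of −0.071 and 0.231, and the lists are not scaled to each other. The rank correlation of the members' fold enrichment was 0.767 between the P7 lists, 0.81 between the P14 lists and 0.693 to 0.738 between a P7 and a P14 list (4 pairs), over 1007 regions that share libraries. Another 132 distal peaks were in both P7 lists and in neither P14 list, and 159 were in 1 of them.

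The threshold of 3000 bp cut through a continuum. The members just inside it lay 3003, 3023 and 3037 bp from the starts of Mos, AC154486.1 and Gm5456, with −log10 q in the weakest list of 17.37, 24.31 and 5.114. Mos encodes the kinase that holds mammalian eggs in metaphase. The shared peaks just outside lay 2994, 2994 and 2989 bp from Mdm4, Gm21738 and Atp6v1fnb, at 7.094, 14.83 and 6.747. The median member lay 11537 bp from the nearest start and 66 members lay over 50 kb away, the farthest at 299611 bp. By summit, 599 members (59.5%) were intergenic, 292 (29%) intronic and 116 (11.5%) exonic. Of 3720 distal peaks in both P14 lists and neither P7 list (new at P14), 40.9% were intergenic, 52% intronic and 7.07% exonic. The nearest GENCODE start belonged to a protein-coding gene for 513 members, a processed pseudogene for 164 and a lincRNA for 115. Members were on all 19 autosomes, from 0.283 per Mb on chromosomes 5 and 10 to 0.606 per Mb on chromosome 11.

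Overlap with the other antibodies split the members into separate kinds. For each member the 29 lists of H3K27ac and arginine methylation were searched for a peak in the 1 kb around the summit. The number of lists had a median of 9, but 167 members (16.6%) were in all 29, 49 in 28, and few in the range below: 26 were in 21 to 24 lists and 38 in 25 to 27. At the other end 50 members were in none and 286 in 1 to 5. In all, 254 members (25.2%) were in 25 or more lists, against 463 of the shared promoters (3.49%) and 41 of the peaks new at P14 (1.1%). The limit of 25 was set after this distribution was seen. Among the 50 members with the strongest H3K4me3 score in their weakest list, 46 were in 25 or more.

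**Figure D1:**
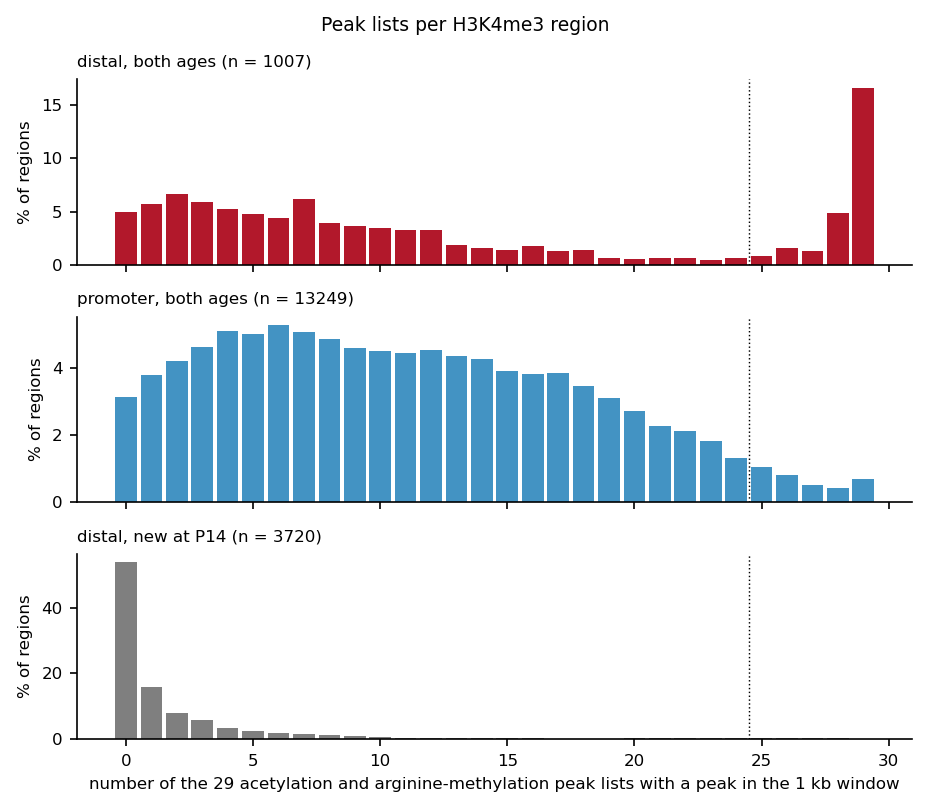
Number of the 29 H3K27ac and arginine-methylation peak lists with a peak in the 1 kb window (horizontal axis) against the percentage of regions (vertical axis), for the 1007 members, the 13249 shared promoters and the 3720 distal peaks new at P14. Members pile up at both ends, with 167 in all 29 lists, whereas most peaks new at P14 are in none or 1; the dotted line separates 24 from 25 lists.

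The 254 members in 25 or more lists were about as strongly enriched in the other lists as in those of H3K4me3. Their median fold enrichment was 6.06 over the 4 H3K4me3 lists and 6.25 over the other lists, a median ratio of 1.04 with quartiles of 0.933 and 1.1, and 84.3% lay within 1.25-fold of equality. The 703 members in 1 to 24 lists had medians of 5.06 and 3.36 and a median ratio of 1.53, with quartiles of 1.33 and 1.75, and 83.2% were over 1.25-fold higher in H3K4me3. The second comparison takes the other lists only where they have a peak. Over all peaks of a list, median fold enrichment was 4.95 to 5.27 in the H3K4me3 lists and 2.86 to 3.55 in the other lists. The H3K4me3 lists were called at another threshold, and members were chosen by their H3K4me3 peaks. The ratio of 1.53 is therefore not read as a property of these members, and whether it departs from that of the lists was not tested. Of the 254 members, 34 had windows in which at least 90% of 31-mers occur once, and their median ratio was 1.06. Of these 34, 64.7% lay within 1.25-fold of equality. A further 23.5% were over 1.25-fold higher in H3K4me3, against 7.48% of the 254. Whether the signal at the 254 members comes from histone marks was not tested, as no control library was used here.

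**Figure D2:**
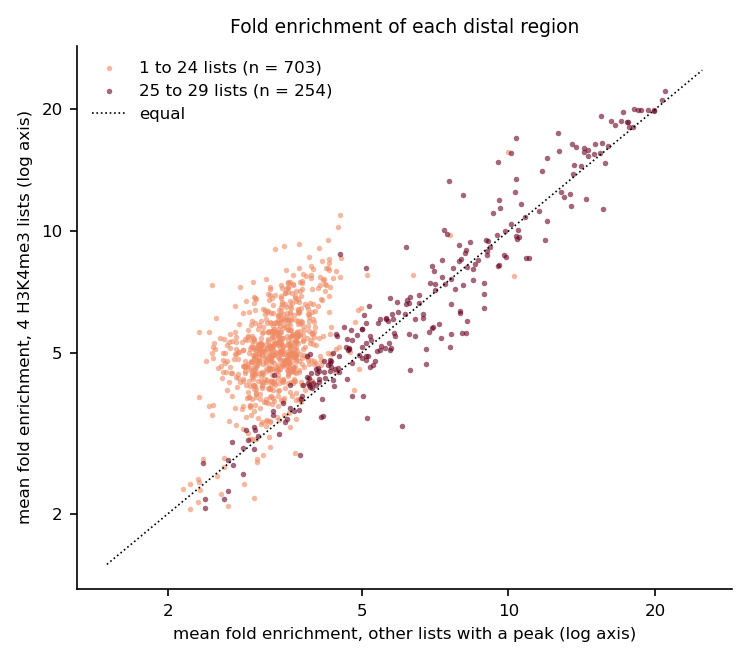
Mean fold enrichment in the other lists with a peak (horizontal, log axis) against the mean over the 4 H3K4me3 lists (vertical, log axis), 1 point per member in at least 1 other list. Members in 25 to 29 lists follow the dotted line of equality over the whole range. Of the 703 members in 1 to 24 lists all but 19 lie above it, with a median ratio of 1.53. Median fold enrichment over all peaks is also higher in each H3K4me3 list than in each other list.

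The 10 members with the highest score in the weakest H3K4me3 list were each in all 29 lists, with −log10 q of 77.2 to 103 in the weakest list. The member chr16:98107374-98107867, 137 bp from a gap, had a fold enrichment of 22.9 and 22.1 at P7 and 22.4 and 21.5 at P14. The unique member chr11:109011517-109012237, 68289 bp from Axin2, had 17.7 and 18.9 at P7 and 18.9 and 19.3 at P14, and 12.4 to 20.8 in the other lists. The ages overlapped at both. Of the 10, 5 lay within 20 kb of an assembly gap of at least 50 kb. The 3 widest members lay in repeated sequence: the tandem run on chromosome 17, chr13:74528551-74530788 (2238 bp, no CpG in its 1 kb window, median 31-mer found 39 times), both in 29 lists, and chr8:90886579-90888753 in an intron of Chd9, a chromatin remodeller (2175 bp, 19 times, 3 lists). One further member, chr12:97061390-97061732, had 80% of its 31-mers in the mitochondrial genome and was in all 29 lists.

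Members also clustered. Of the 1007, 838 had no other member within 10 kb, and 59 fell into 10 runs of 3 or more, 41 of them in 25 or more lists. The 26 members of the Rn4.5s array, chr6:47654847-47778677, made up 2 of the runs. Their windows were CpG-rich, 18 of 26 island-like, and 24 had no 31-mer found once, with median copies of 14 to 18. Their median H3K4me3 fold enrichment was 2.46 and 2.51 at P7 and 2.73 and 2.67 at P14, with extremes of 1.92 and 7.62 over the 4 lists, and they were in 1 to 29 of the other lists, 14 of them in 25 or more. A read from such an array can be placed at any copy, so these 26 regions are not independent and each copy's own level is uncertain. Another run, chr17:3006836-3030981 near Scaf8, held 8 members, each in 29 lists, with a median CpG observed/expected ratio of 0.0615.

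Sequence separated the same groups. In the 1 kb window, the 753 members in fewer than 25 lists had a median GC content of 55.7% and a median CpG observed/expected ratio of 0.596, and the 254 others 47.5% and 0.146. The ratio was 0.748 in shared promoters, 0.19 in peaks new at P14 and 0.156 in 1 kb tiles of the distal genome. Island-like windows, with GC over 50% and a ratio over 0.6, made up 344 of all members (34.2%): 331 of the 753 (44%) and 13 of the 254 (5.12%). The share was 79% in shared promoters, 2.18% in peaks new at P14 and 0.1% in distal tiles. Repeat-masked bases took a median of 9.9% of the window in the 753 and 45.9% in the 254, against 25.8% in distal tiles. Of the 254, 51 (20.1%) lay within 20 kb of a gap, and 11 of the 753 (1.46%) did. In median CpG ratio, members in fewer than 25 lists thus lay between promoters and distal tiles.

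**Figure D3:**
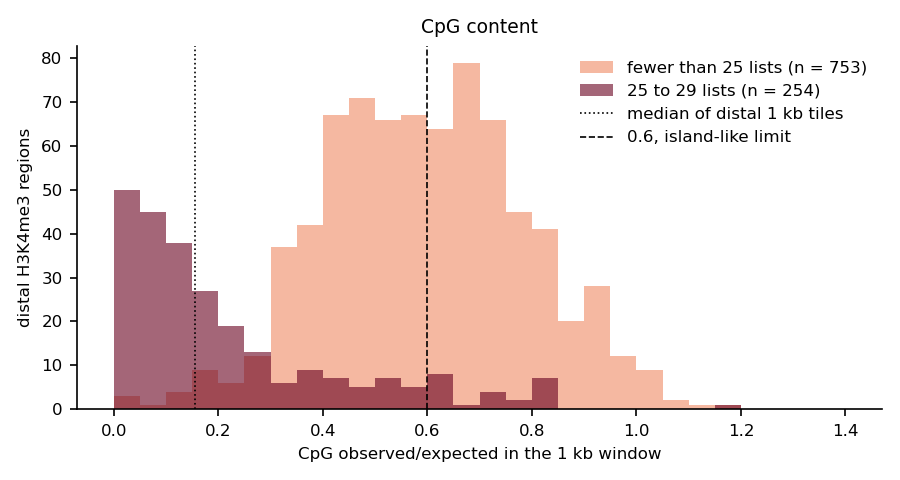
CpG observed/expected ratio in the 1 kb window (horizontal axis) against the number of members (vertical axis), for members in fewer than 25 lists and in 25 to 29. The former centre on a median of 0.596 and the latter on 0.146, close to the median of distal genome tiles (dotted line, 0.156); the dashed line is the island-like limit of 0.6.

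A share of the members in fewer than 25 lists lay at starts in the RefSeq annotation that are not in GENCODE vM21. A RefSeq transcript start, predicted models included, was within 1000 bp of the summit at 154 of the 753 (20.5%), 7 of the 254 (2.76%), 2.66% of the peaks new at P14 and 1.08% of distal tiles. Of the 161 such members, 78 were nearest to an mRNA start and 72 to a lncRNA start. The summit was downstream of the start at 111 and upstream or at it at 50, with a median of 164 bp downstream and quartiles of −100 and 449 bp. Curated RefSeq starts were within 1000 bp of 47 members (4.67%), against 0.0614% of distal tiles. "Distal" therefore holds for GENCODE vM21 and not for every annotation.

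The strongest members in fewer than 25 lists, listed after their values were seen, were mostly of this kind. The first, chr8:69716277-69717323, lay 180 bp upstream of a RefSeq start of Zfp869, a zinc finger gene whose nearest GENCODE start is 5931 bp away. Its fold enrichment was 9.06 and 9.78 at P7 and 11.1 and 11 at P14, both P14 values above both P7 values, and 2.76 to 7.37 in the 22 other lists with a peak. The peak chr10:13008174-13009331 lay in an exon 347 bp downstream of the RefSeq start of Sf3b5, a splicing factor subunit, with 7.64 and 7.74 at P7 and 9.27 and 9.15 at P14. At chr4:143161520-143162286, in an intron of Prdm2, which encodes a PR-domain protein, the values were 9.73 and 7.98 at P7 and 7.86 and 10.8 at P14, and the ages overlapped. At the Gm33971 peak printed above they were 8.44 and 7.63 at P7 and 8.37 and 9.79 at P14, with 8 other lists. At the Gm8273 peak they were 5.79 and 6.02 at P7 and 7.63 and 6.44 at P14, with 18 other lists. Genes named Zfp and a number were the nearest protein-coding gene in 38 of 765 cases (4.97%), and make up 385 of 20807 autosomal protein-coding genes (1.85%).

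The windows were searched on both strands for short motifs in the 300 bases around the summit, beside the promoters of RefSeq genes and distal tiles of the same length. The GC box GGGCGG, the site of SP1-type factors, was in 299 members (29.7%): 37.6% of the 753 and 6.3% of the 254. It was in 53.9% of shared promoters, 6.51% of peaks new at P14, 36% of RefSeq promoters and 2.35% of tiles. The NRF1 word GCATGCGC was in 2.09% of members and 0.302% of tiles, the ETS word CCGGAAGT in 1.59% and 0.158%, and the CRE TGACGTCA in 0.596% and 0.156%. The reverse held for the CCAAT box, in 21.5% of members and 41% of tiles, the GATA word AGATAA, in 5.36% and 19.6%, the AP-1 word TGANTCA, in 4.07% and 8.95%, and the DMRT1 word TACATTGT, in 0.298% and 1.39%. The words of YY1 (AAGATGGC), RFX (GTTGCCAT) and NR5A1 (TCAAGGTCA) were in 1.19%, 0.596% and 0.397% of members, against 2.71%, 0.895% and 0.623% of tiles. The CTCF motif was in 0.497% and 0.132%. The GC box, NRF1, ETS and CRE words each contain CpG and were more frequent in members than in tiles. Median GC content was 56.3% in the members' 300-base windows and 41.3% in distal 1 kb tiles. The part of base composition in the more and the less frequent words was not tested. A match is a description of letters and not a bound site.

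Acetylation and arginine methylation covered more members at P14 than at P7. H3K27ac peaks were at 42.6% and 44.6% of members in the P7 libraries and 67.4% and 63% at P14, and H3R2me2a peaks at 34.9% and 34.8%, then 66.2% and 67.4%. H4R3me2a peaks were at 32.1%, 33.5% and 32.7% at P7 and 49.2%, 56.5% and 53.2% at P14. For these marks the lowest P14 library was above the highest P7 library. H3R8me2a (34.6% and 34.5%, then 50.1% and 50.1%) and H4R3me1 (36.8% and 32.9%, then 46.5% and 47.7%) were separated too. H4R3me2s was at 35.3% and 36.5% of members at P7 and 43.8%, 36.7% and 39% at P14, where the groups were barely separated. The peak names inside these P14 H4R3me2s lists begin with SD17, and those of the P7 lists with SD7, so that the age of the former rests on the labels alone. The differences of the means were 32 percentage points for H3R2me2a, 21.6 for H3K27ac, 20.2 for H4R3me2a, 15.6 for H3R8me2a, 12.2 for H4R3me1 and 3.96 for H4R3me2s, the last falling to 1.99 without P14 replicate 1. In shared promoters the shares went from a mean of 18% to 70.5% for H3R2me2a, 48.6% to 73.2% for H3K27ac, 14.9% to 52.9% for H4R3me2a, 17.7% to 51.5% for H3R8me2a, 17.4% to 45.4% for H4R3me1 and 31.6% to 39.8% for H4R3me2s, by more points than the members in each case, a difference that was not tested. Among regions in fewer than 25 lists H3K27ac went from 25.4% to 56.4% of members (30.9 points) and from 46.9% to 72.2% of shared promoters (25.4 points), but that limit counts the compared lists and takes out regions with peaks at both ages, 25.2% of members and 3.49% of shared promoters, so nothing is read from this.

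An exact two-sided permutation test over libraries cannot go below p = 0.33 with 2 against 2 libraries, the p of H3K27ac, H3R2me2a, H3R8me2a and H4R3me1. The exact test gave p = 0.1, the smallest possible for 3 against 3, for H4R3me2a and p = 0.2 for H4R3me2s, and 0.33 for each mark after Benjamini-Hochberg adjustment over the 6 marks. P14 lists were longer than P7 lists (H3R2me2a 18821 and 20891 peaks at P7, 47975 and 55908 at P14) for each mark other than H4R3me2s, which had 19981 and 36145 peaks at P7 and 33814, 18423 and 22256 at P14. With the lists of a mark cut to the same number of strongest peaks the differences were 15.9 for H3R2me2a, 10.3 for H3K27ac, 9.47 for H4R3me2a, 6.26 for H3R8me2a, 8.54 for H4R3me1 and 4.25 for H4R3me2s. Library depths behind the lists are unknown.

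**Figure D4:**
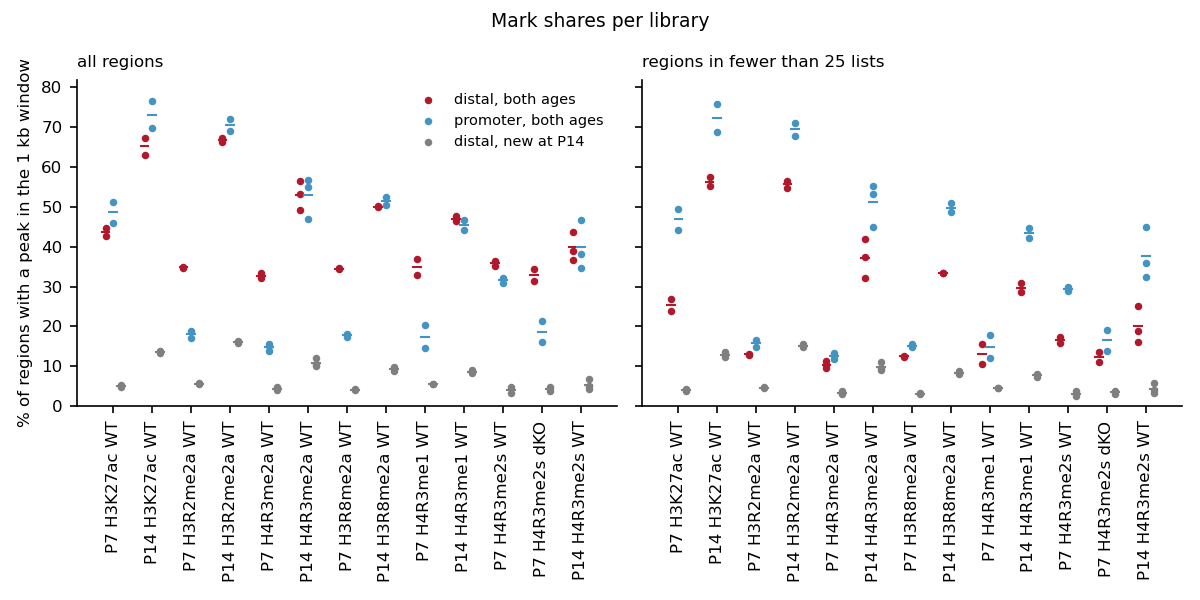
Percentage of regions with a peak in the 1 kb window (vertical axis) for each mark, age and genotype (horizontal axis); points are libraries and bars their means, for all regions (left) and regions in fewer than 25 lists (right). Members sit near shared promoters in most P14 lists on the left and below them on the right, and peaks new at P14 are lowest in each column.

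Region by region, gains by P14 outnumbered losses. These counts use the full lists, which were longer at P14 for each mark other than H4R3me2s, and no counts from lists of equal length are given. H3K27ac was in both lists of both ages at 312 members (31%), in both P14 lists and neither P7 list at 126 (12.5%), in both P7 and neither P14 list at 6, and in none of the 4 lists at 201 (20%). H3R2me2a was gained in this sense at 207 members (20.6%) and lost at 0, H3R8me2a gained at 74 and lost at 3, H4R3me1 at 64 and 0, and H4R3me2a at 52 and 0. H4R3me2s was gained at 16 and lost at 7. Shared promoters gained marks in the same sense at a like or higher share, 12.6% for H3K27ac, 34.8% for H3R2me2a, 18.5% for H3R8me2a, 14.5% for H4R3me1, 13% for H4R3me2a and 3.12% for H4R3me2s, against 7.35% of members for H3R8me2a, 6.36% for H4R3me1, 5.16% for H4R3me2a and 1.59% for H4R3me2s. Of the 126 members that gained H3K27ac, 125 were in fewer than 25 lists, where the shares were 16.6% of members and 13% of shared promoters, with the same limit on their reading. Among the 753, both P7 lists of H3K27ac covered 112 (14.9%) and both P14 lists 320 (42.5%). No peak of H3K27ac, H4R3me1 or an asymmetric arginine mark was found at 306 of the 753 at P7 and at 72 at P14. Within the 753, the 331 island-like members were wider than the 422 others (median 717 and 540 bp) and held H3K27ac in both P14 lists at 38.4% and 45.7%, a difference that was not tested, with fold enrichments in the first P7 list of 4.82 and 4.86.

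Against other classes of H3K4me3 region, members carried the marks more often than peaks new at P14. The mean difference was 42.3 percentage points over the 14 WT P14 lists, higher in 14 of 14, with a range of 32.5 to 54.1 (exact two-sided sign-flip permutation test, p = 0.000122, the smallest possible; adjusted 0.000366 over 3 such comparisons). In the 13 WT P7 lists it was 31.1, higher in 13 of 13 (exact p = 0.000244, adjusted 0.000366). In windows with at least 90% of 31-mers found once the differences were 34 and 16.9 at the same exact p. Without regions in 25 or more lists they were 27.9 and 11 points, a description with no test, since that filter counts peaks in the lists compared. Lists of 1 antibody are not independent, and with 1 mean per mark the differences were 43 and 31.3 (exact p = 0.0312, the smallest for 6 marks). Each list scores the same regions, so these p-values measure a spread over lists and not over regions. The classes also differ by definition, as members need H3K4me3 peaks at both ages and the others need them at P14 alone. Of members 25.2% were in 25 or more lists, and 1.1% of peaks new at P14. The part of this in the differences was not tested. Against shared promoters in the P7 lists, members were higher by 11.9 points in 11 of 13 lists (exact p = 0.00244), H3K27ac being the exception at both of its libraries. With 1 mean per mark the exact p was 0.0938. In windows with at least 90% of 31-mers found once the difference was −4.02 points, with members higher in 5 of 13 lists (exact p = 0.105). Leaving out regions in 25 or more lists gave −6.89 points, a description with no test, since the filter counts peaks in the lists compared and takes out 25.2% of members and 3.49% of shared promoters.

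At P7, H4R3me2s, the symmetric mark made by PRMT5, was at 35.3% and 36.5% of members in WT and 34.5% and 31.3% in dKO, where the values do not overlap but the difference of −3.03 points has an exact permutation p of 0.33, the smallest possible. It was −1.44 without dKO replicate 2 and −0.497 (exact permutation p = 1) with a q of at most 0.01 in the lists. In the 753 members in fewer than 25 lists the shares were 15.8% and 17.3% in WT and 13.5% and 11% in dKO. In shared promoters they were 32.1% and 31% in WT and 21.3% and 16% in dKO. No test of whether members and promoters differ in this was made.

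The H3K4me3 lists also covered genes of other cell types. Of 17 autosomal Sertoli cell genes, 17 had an H3K4me3 peak within 3000 bp of a start in both P7 lists and 16 at P14. Of 13 pan germ cell genes 9 and 11 did, of 37 meiotic genes 26 and 36, and of 10 Leydig cell genes 2 and 1. Of 7 peritubular genes 2 and 4 did, of 10 macrophage genes 1 and 1, and of 7 endothelial genes 2 and 2. Dmrt1 is on both the Sertoli and the spermatogonial list. The paper reports that germ cells made up the great majority of the strained P7 cells. The part of each cell type in the members was not tested. In the Smart-seq2 WT libraries the macrophage and endothelial genes were listed at 0, the 10 Leydig genes summed to 11.2 and 14 TPM (941 to 1040 TPM in WT testis) and the 20 Sertoli genes to 601 and 654 TPM (7970 to 8450).

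Within 100 kb, 900 members had the start of a protein-coding gene, 765 genes in all, of which 98 were nearest to 2 or more members. Ezh2, the H3K27 methyltransferase, and Pdia4, a protein disulfide isomerase, were nearest to 11 and 15, all in the Rn4.5s array. Nearness does not show which gene, if any, a region serves. Of the 764 genes in the RNA tables, 492 (64.4%) had a mean of at least 1 TPM in WT spermatogonia, with a median of 4.12 TPM. The share was 54.1% over autosomal protein-coding genes, 66.1% for genes nearest to peaks new at P14 and 82.2% for genes nearest to shared promoters. Among the 10 highest were Ubb, the ribosomal protein genes Rpl38, Rpl34 and Rpl14, H3f3a, which encodes a histone H3 variant, Ptma, Pdcd5, Snrpe and Dctpp1. Ubb, a polyubiquitin gene, was at 3900 and 3290 TPM, with its member 9082 bp away at fold enrichments of 3.65 and 3.96 at P7 and 4.18 and 6.12 at P14. Dctpp1, a nucleotide pyrophosphatase gene, was at 642 and 772 TPM.

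Nearest genes called in dKO testis were split about evenly by direction. In the bulk RNA-seq, edgeR called 29 of 614 tested nearest genes (4.72%), and 7.1% of all 16554 genes, where a call needs a 2-fold change and a false discovery rate (FDR) under 0.05. With an unadjusted p under 0.05 in place of the FDR the shares were 5.7% and 8.92%. Of the 29, 15 (2.44% of those tested) were higher, where 5.32% of all genes were, and 14 (2.28%) lower, where 1.78% were. The differences of these shares were not tested. Their median log2 fold change was −0.07, and 0.02 over all genes. For genes nearest to members in fewer than 25 lists the count was 24 of 498 (4.82%), for those nearest to peaks new at P14 112 of 2001 (5.6%) and for those of shared promoters 300 of 10756 (2.79%). Fewer cells of a type and less RNA per cell cannot be told apart in such tissue. Of the lists fixed for other cell types, 5 of 9 tested Leydig genes and 4 of 7 peritubular genes were lower in dKO and none higher, as were 1 of 19 Sertoli and 1 of 9 macrophage genes, with 0 of 7 endothelial and 0 of 13 pan germ cell genes called. Of the other germline lists, 2 of 30 spermatogonial and 2 of 36 meiotic genes were higher, and 1 of 30 spermatogonial and 1 of 19 piRNA pathway genes lower. Sertoli genes summed to 8220, 7970 and 8450 TPM in WT testis and 6150, 5350 and 5560 in dKO. Spermatogonial genes were at 1970, 2110 and 1850, then 1760, 1730 and 1730, and macrophage genes rose, from 125, 116 and 132 to 150, 165 and 136. The pan germ cell, meiotic, piRNA and endothelial sums overlapped. The part of these cell types in the results was not tested. Prmt1 itself was at 219 to 247 CPM (normalised read count, scaled to library size) in WT testis and 146 to 199 in dKO, a log2 fold change of −0.49 (SE 0.132, edgeR FDR 0.0334).

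Called nearest genes whose mean count reached 50 and whose genotypes did not overlap comprised 5 that were higher in dKO testis. The share of all tested genes that pass this filter in each direction is not given, so nothing is read from the numbers per direction. Dcdc2a, a doublecortin-domain gene, was at 1.14, 0.429 and 1.57 CPM in WT and 2.85, 15.3 and 4.82 in dKO (log2 fold change 2.86, SE 0.668, edgeR FDR 0.0188). Its member, chr13:25050401-25050720, was in 29 lists and had 61.5% of its 31-mers found once. Celf4, an RNA-binding protein gene with a member in an exon in 1 other list, was at 2.61, 2.15 and 2.45 CPM in WT and 4.89, 9.8 and 8.94 in dKO (1.71). Cacna1a, a calcium channel subunit gene with an exonic member of fold enrichment 5.23 and 4.91 at P7 and 6.68 and 5.93 at P14, was at 5.69, 5.76 and 5.47 CPM and then 11.9, 12.8 and 12.1 (1.12). Its dKO libraries lay within 1 CPM of each other. Capg, an actin-capping gene, rose by 1.12 and Mturn by 1.01 on the log2 scale.

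A further 13 were lower, of which the first 8 are named. Lars2, the mitochondrial leucyl-tRNA synthetase gene, was at 705, 692 and 779 CPM in WT and 199, 211 and 185 in dKO (log2 fold change −1.87, SE 0.108, edgeR FDR 6.97e-05). Its member, chr9:123461810-123462259, was exonic and in 29 lists, with 45.9% of 31-mers found once and fold enrichments of 15.9 and 16.2 at P7 and 17.2 and 16.3 at P14. Scd2, a fatty acid desaturase gene, was at 1320, 1290 and 1190 CPM and then 667, 446 and 615 (−1.14). Its member, chr19:44283968-44285021, lay 8939 bp from the start and was in 20 lists, and dKO replicate 2 was lowest. Fat1, an atypical cadherin gene, was at 445, 451 and 349 CPM and then 252, 129 and 188 (−1.13), with dKO replicate 2 again lowest. Synpo, an actin-binding protein gene, was at 148, 129 and 138 CPM and then 75.5, 59.7 and 56.7 (−1.11). Itga8, an integrin gene, fell by 1.43, Btnl10 by 1.74, Asb2, an ubiquitin ligase subunit gene, by 1.16 and the transcription factor gene Pax2 by 1.12 on the log2 scale. Without dKO replicate 2, Capg, Scd2 and Fat1 were below the fold limit at 0.82, −0.98 and −0.92, and without dKO replicate 3 Asb2 was at −0.97. Without WT replicate 1 or 2 Dcdc2a, at 2.89 and 2.45, no longer passed, and without dKO replicate 2, its highest library, it was at 1.88 and passed. Mturn and Pax2 no longer passed under 6 alternatives each, with log2 fold changes of 0.89 to 0.99 for Mturn and −0.80 to −1.19 for Pax2.

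**Figure D5:**
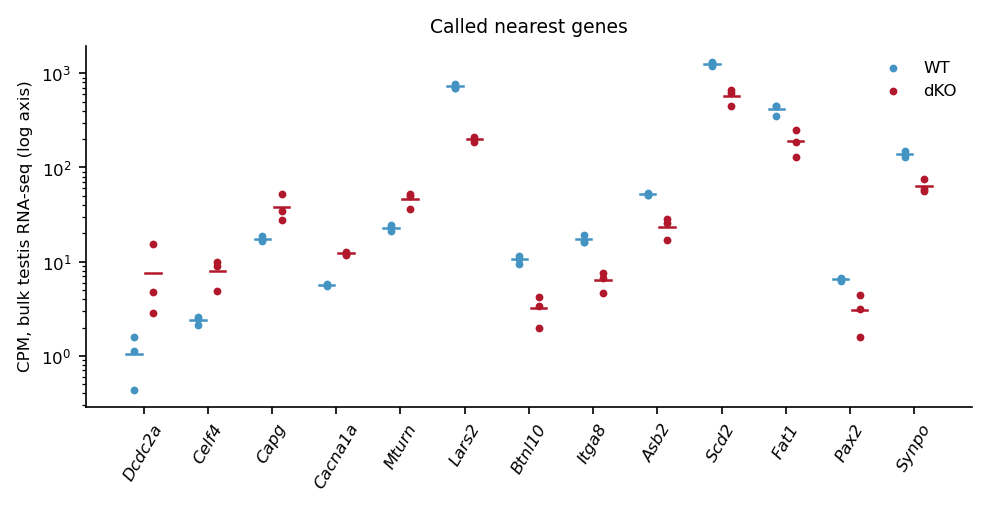
CPM in bulk testis RNA-seq (vertical, log axis) of the called nearest genes named by the rule (horizontal axis), 3 WT and 3 dKO libraries as points with bars at the means. The 5 genes on the left are higher and the 8 on the right lower in dKO, and the genotypes overlap in none of them.

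In Smart-seq2 of spermatogonia edgeR called 0 of 581 tested nearest genes, and 0% of all 16443 genes. At an unadjusted p under 0.05 and the same fold change the counts were 101 nearest genes (17.4%) and 17.9% of all genes, and DESeq2 called 66 of 588 nearest genes (11.2%) and 9.34% of all genes, a difference that was not tested. The smallest FDR was 0.0774, and Prmt1 was at 216 and 149 CPM in WT and 112 and 86.5 in dKO (log2 fold change −0.88, edgeR FDR 0.133). Marker sums also differed between the genotypes in these libraries. The 10 macrophage genes summed to 0 and 0 TPM in WT and 55.9 and 54.8 in dKO, where 8 of the 10 were detected, and the 7 endothelial genes to 0 and 0, then 1.14 and 1.04. Sertoli genes summed to 601 and 654 TPM in WT and 769 and 953 in dKO, meiotic genes to 4250 and 4240, then 1910 and 1930, and pan germ cell genes to 2840 and 2880, then 1870 and 1930. Leydig genes overlapped, at 14 and 11.2, then 13.1 and 18.9. Spermatogonial genes rose, from 1610 and 1430 TPM to 2020 and 1980, and peritubular genes fell, from 22 and 18.9 to 6.08 and 7.76. The piRNA pathway genes were at 2130 and 1910 TPM, then 1860 and 1850. Neither the somatic nor the germline lists thus all moved in the same direction. The part of other cell types or of germ cell stage in the genes below was not tested. Values are given for the 8 nearest genes with the smallest p, none of which passed in edgeR and each of which passed in DESeq2 (FDR 6.15e-11 for Egr1 to 5.19e-05 for Pigk). Egr1, an immediate early transcription factor gene, was at 32.1 and 20.4 CPM in WT and 153 and 181 in dKO (log2 fold change 2.67, SE 0.304, edgeR FDR 0.0774). Fosb, another immediate early gene, had 0 counts in both WT libraries and 376 and 474 in dKO, at least 355-fold higher against a floor of 3 counts over the WT group. Elovl5, a fatty acid elongase gene whose unique member was in 22 lists, was at 30.4 and 27.5 CPM and then 91.3 and 108, and Lars2 at 291 and 248 and then 564 and 588. Oat, the ornithine aminotransferase gene, was at 203 and 193 CPM and then 83.9 and 81.3, and Arf2, a small GTPase gene, at 220 and 194 and then 75.4 and 85.5. Cux1, a homeobox gene, was at 164 and 153 CPM and then 50.9 and 66.1, and Pigk, of the GPI transamidase, at 123 and 113 and then 50.1 and 47.3. Genotypes did not overlap in any of the 8, a pattern that choosing by p favours.

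Nearest genes made up 3.68% of autosomal protein-coding genes. Of the fixed lists they took 1 of 30 spermatogonial genes (Nanos2), 1 of 40 meiotic genes (Hfm1), 2 of 30 genes for H3K4 methylation (Kdm5b and Ing2) and none of the piRNA, pan germ cell or somatic lists. Nanos2, an RNA-binding repressor that maintains spermatogonial stem cells, lay 28985 bp from its exonic member, chr7:18958199-18958667, and had 2 and 0 counts in WT spermatogonia and 103 and 159 in dKO, a ratio of 164 (95% counting interval 45 to 1360). It did not pass in Smart-seq2 (edgeR FDR 0.0987) or in testis. Hfm1, a meiotic helicase gene, was at 109 and 33.7 CPM in WT spermatogonia and 15.4 and 18.7 in dKO (FDR 0.142 by edgeR), and its member, chr5:106801876-106802373, was at 3.69 and 4.51 at P7 and 6.56 and 6.36 at P14. Kdm5b was at 369, 394 and 355 CPM in WT testis and 357, 275 and 347 in dKO (edgeR FDR 0.315). Its member was weak, at 2.96 and 2.98 at P7 and 3.3 and 3.17 at P14, and in 12 lists. Ing2, which encodes a reader of H3K4me3, was at 38.3, 36.2 and 43.7 CPM and then 34.7, 38.5 and 39.6 (edgeR FDR 0.726).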

How the data were processed

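CUT&Tag peaks, bulk RNA-seq and Smart-seq2 were analysed as deposited, with groups taken from the labels and the members and gene lists chosen with earlier results of these data known. The authors called peaks with MACS2 2.1.0 separately for each library, at q 0.05 for H3K4me3 and p 0.005 for the other marks by the peak names, and the deposited lists give a fold enrichment, which is a ratio within 1 library, with −log10 p and −log10 q. How the CUT&Tag reads were aligned, how multiple matches were treated and whether a control served is not given in the sources used here. Read depths are unknown. The RNA tables hold RSEM expected counts, which the authors obtained after fastp 0.23.2 and STAR on mm10, and the TPM they deposited is scaled within each library. FPKM was not used.

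Peak ends lay within the chromosome lengths of GRCm38, the build of mm10. Annotation was GENCODE vM21 (141767 transcripts) and RefSeq (114739 autosomal transcripts, 43763 curated), and sequences were read from the RefSeq GRCm38 assembly. Windows of 1000 bp (marks and composition) and 300 bases (motifs and 31-mers) were centred on the summit, and 31-mers were counted over the assembly on both strands. Overlap was at least 1 bp. Gaps were runs of at least 50000 unknown bases. Shares of regions were compared over libraries by exact permutation.

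Expected counts were rounded, filtered with filterByExpr, scaled by TMM and tested by genotype within each assay in edgeR 4.0.16 (R 4.3.3, quasi-likelihood fit), with Benjamini-Hochberg adjustment over all genes tested and no replicate block. Calls need a 2-fold change and an FDR under 0.05. DESeq2 1.42.0 was an alternative. Library totals were 12396317 to 16598233 counts in bulk and 15610354 to 18547078 in Smart-seq2. The biological coefficient of variation came to 0.155 in bulk and 0.767 in Smart-seq2. Nothing in the labels says that replicates came from separate animals, so p-values measure the spread between these libraries. The counting interval covers counting error only. Overlap, 31-mer and edgeR code was tested on simulated data.

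Named regions are the 10 members with the highest lowest-of-4 −log10 q, the 10 in most lists, the 3 widest and the 3 on each side of 3000 bp. Named genes are nearest protein-coding genes within 100 kb: up to 8 called per direction that reach a mean count of 50 without overlap of the genotypes, or the 8 smallest p where none was called, the 10 with the highest TPM in Smart-seq2 WT, and those on a fixed list. Other regions named were chosen after their values were seen, and so were the alternatives that leave out regions in 25 or more (or 27 or more) lists or keep windows with at least 90% of 31-mers found once. Python 3.11.15, pandas 2.3.3, numpy 2.4.6 and numba 0.67.0 were used. A gene, a motif and a region are not reported here.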

Additional observations from a re-analysis of the deposited data

Results flagged for a closer look

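For 15 named nearest genes the genotype difference was not the same in both assays by an edgeR interaction test over all 10 RNA libraries (FDR below 0.05). Most of these genes were named for a genotype difference in 1 of the same assays, a choice that favours such a result. The share of all genes that pass is not given, so the count is not read as a result about nearest genes. Values are the log2 difference in Smart-seq2 minus that in bulk RNA-seq, and the assays differ in tissue, library method and controls, which cannot be told apart here. The difference was higher in Smart-seq2 for Fosb (12.32; bulk counts 23, 36 and 19 in WT and 13, 13 and 23 in dKO), Asb2 (8.21; Smart-seq2 counts 0 and 0 in WT and 7 and 24 in dKO), Nanos2 (7.81), Lars2 (3.06), Egr1 (2.67; bulk log2 fold change 0.08), Elovl5 (2.30; bulk −0.44), Fat1 (1.62), Scd2 (1.59) and Ptma (0.52). The sizes for Fosb, Asb2 and Nanos2 rest on WT libraries with 0 to 2 counts and depend on the prior count. It was lower in Smart-seq2 for Mturn (−2.75), Hfm1 (−2.34), Cacna1a (−1.87), Pigk (−0.97), Arf2 (−0.94) and Oat (−0.71), of which Mturn and Cacna1a were higher in dKO testis and had fitted values of −1.83 and −0.84 in Smart-seq2. Lars2 moved in opposite directions, from 10543, 11287 and 12399 counts in WT testis to 2727, 2653 and 2913 in dKO, and from 5621 and 4735 in WT spermatogonia to 8759 and 8889 in dKO. Its member is among those with peaks in all 29 other lists.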

How the results depend on the processing

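The member count of 1007 was 1763 when the distance was taken from protein-coding starts alone, and between 1067 and 1318 when 1 of the 4 H3K4me3 lists was left out. It stayed within 1.5 times under the other limits of distance, overlap and q. The island-like share of 34.2% was 39.5% in the 300-base window, 44% without members in 25 or more lists and 43.1% without those in 27 or more. The excess over shared promoters in the P7 lists, 11.9 points, was 11.4 with 1 mean per mark (exact permutation p = 0.0938), −6.89 without regions in 25 or more lists and −4.02 (exact permutation p = 0.105) in windows with at least 90% of 31-mers found once, and 12.1 to 12.4 when a replicate was left out. The differences between ages and from peaks new at P14 kept their direction under each alternative run. That of H4R3me2s between ages, 3.96 points, was 1.99 to 5.51 when a replicate was left out, and that between dKO and WT, −3.03, was −4.62 to −1.44 and −0.497 at a q of at most 0.01. Per-library shares moved most with a q of at most 0.01 in the mark's lists, as for H3K27ac at P14 from 65.2% to 50.5%. In bulk RNA-seq 29 nearest genes were called, 23 to 41 with 1 library left out, 35 by DESeq2 (5.13%, and 8.19% of all genes) and 39 without the filter on low counts (5.32%, and 7.21%). In Smart-seq2 0 were called, 66 by DESeq2 (11.2% of those tested, and 9.34% of all genes), 280 without WT replicate 1 (46.4%, and 41.4% of all genes) and 232 without WT replicate 2 (38.3%, and 33.7%), where the lone WT library is assumed to vary like the dKO libraries, and 0 to 280 over all 4 such fits. The replicate block gave 26 called nearest genes in bulk and 0 in Smart-seq2, and −3.03 points (exact permutation p = 0.5) for H4R3me2s in dKO. Same-numbered libraries share only a number: the correlations of their deviations were −0.221 to 0.0825 in bulk and 0.0177 in Smart-seq2, and 1 of 3 bulk WT libraries correlated best with its own number.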
